A study of Homo sapiens with 21 samples.

Results

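HNRNPK and its poly-C binding paralogs PCBP1, PCBP2 and PCBP4 were examined as RNA targets of HNRNPK itself. The clusters taken are those that the authors' annotation names for these 4 genes, by gene name alone. The genes were chosen with earlier results of these data known. HNRNPK PAR-CLIP gave 778762 clusters in 4 libraries, and 205 of them carry 1 of the 4 names. The libraries came from MDA-MB-231, a triple-negative breast cancer cell line, either parental or with KRT19, the gene for keratin 19 (K19), knocked out by CRISPR/Cas9 (KRT19 KO). Cytoplasm and nucleus of each genotype gave 1 library each, so the 4 conditions are parental cytoplasm, KRT19 KO cytoplasm, parental nucleus and KRT19 KO nucleus. All cells received 4-thiouridine (4SU), a uridine analog, and ultraviolet light, and RNA was recovered with an anti-HNRNPK/J antibody after digestion with RNase T1. The study asked how K19 bears on the RNAs that HNRNPK holds in the cytoplasm. The study's PAR-CLIP methods describe a detergent lysate taken as cytosol. Its separate fractionation protocol extracts the washed pellet with Triton X-100 as the nuclear fraction, and whether the nuclear PAR-CLIP libraries were made in this way is not given there. Whether the knockout line is a single clone is not given in the sources used here.

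HNRNPK and the PCBP proteins are built from KH domains, folds that hold a short stretch of single-stranded RNA, and they are known for binding runs of cytosine. HNRNPK moves between nucleus and cytoplasm, PCBP1 and PCBP2 (also called hnRNP E proteins) act in mRNA stability and translation, and PCBP1 is an intronless copy that arose from a PCBP2 transcript. Many RNA-binding proteins of this kind bind their own transcripts and those of their paralogs, which makes these 4 genes a natural place to look for binding within the family. In PAR-CLIP a crosslinked 4SU base appears as C where the genome has T, and a cluster is a short stretch of reads with such T-to-C changes.

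The libraries differed in depth and in kind. Cluster reads summed to 5551612 in parental cytoplasm, 6216226 in KRT19 KO cytoplasm, 3537577 in parental nucleus and 3252800 in KRT19 KO nucleus. Values are given as reads per 1000000 cluster reads (RPM), so that 1 read was worth 0.180, 0.161, 0.283 and 0.307 RPM. No cluster in any library had fewer than 5 reads, and a library listed without a cluster at a site may still have held a few reads there. With 1 library per condition there is no replicate spread and no test. The 95% intervals given here are exact Poisson intervals for levels, Clopper-Pearson intervals for shares and conditional binomial intervals for ratios, and they cover counting error only.

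Markers were set beside the labels. VIM, CD44, AXL and CAV1, genes of mesenchymal cells such as this line, had clusters in all 4 libraries, and PGR, the progesterone receptor gene, had none in any. The 4 mesenchymal genes summed to 1047, 909, 1112 and 932 RPM in the order of the libraries above, and 9 genes of luminal or epithelial breast cells to 55.8, 41.8, 139 and 78.1 RPM, with 4, 3, 4 and 3 of them at 0. CDH1, which encodes E-cadherin, had 6 reads in KRT19 KO nucleus and none elsewhere. Other genes of this list did have clusters. ESR1, the estrogen receptor gene, had 76, 26, 77 and 60 reads in the 4 libraries, and KRT8 had 145, 126, 208 and 117. KRT18 had 61, 81, 112 and 17 reads. ERBB2 had none in the cytoplasms and 53 and 46 reads in the nuclei of parental and KRT19 KO cells. KRT19 itself had 7 reads in parental cytoplasm, 5 in KRT19 KO cytoplasm and none in the nuclei, none of them exonic, so these files do not check the knockout. NEAT1, a nuclear RNA, stood at 226.4 and 203.8 RPM in the cytoplasm libraries of parental and KRT19 KO cells and at 789 and 1092 RPM in the nuclear ones. KCNQ1OT1, a second nuclear RNA, was likewise higher in the nuclear libraries, with 22.5 and 57.4 RPM in cytoplasm and 45.5 and 167 RPM in nucleus. MALAT1, the other of the 3 nuclear RNAs listed, did not follow the labels, with 1229 and 842 RPM in the cytoplasm libraries and 888 and 548 RPM in the nuclear ones. The part that mixing of the fractions had in the values below was not tested.

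Positions are given in GRCh37 (hg19), since all 324 clusters named for this family read the same as that assembly. Some of the sites named below are shown here as their strongest cluster. Where it lies in a 3′ untranslated region (UTR), at most 30 bases of it are given. Sequences read 5′ to 3′ in DNA letters, with runs of at least 3 C in capitals. The sites were chosen because each holds many of its gene's reads or sets the libraries apart. All but the PCBP2 3′UTR site carry such a run. They do not stand for all strong sites, since CCC was found in 21 of the 38 sites of at least 50 reads on the members. Values below also turn on sites that are not shown, such as PCBP1 site 5 and PCBP2 site 81.
HNRNPK intron 1, chr9:86594255-86594288, minus strand: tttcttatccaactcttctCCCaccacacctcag
HNRNPK intron 5, chr9:86590899-86590933, minus strand: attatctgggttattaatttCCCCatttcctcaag
HNRNPK 3′UTR, both cytoplasms, chr9:86583525-86583554, minus strand: ttgCCCCtacttttcaacaattttctatgt
HNRNPK 3′UTR, parental nucleus, chr9:86583743-86583772, minus strand: atttCCCaaCCCaCCCCCaaactaaacact
HNRNPK 3′UTR, both nuclei, chr9:86583101-86583126, minus strand: tcacttccaaataaataaaacaCCCa
PCBP1 3′UTR, chr2:70315960-70315989, plus strand: CCCtcaataaCCCCtttctgctgttctCCC
PCBP2 intron 9, chr12:53859009-53859038, plus strand: CCCttttcctttcctccttttCCCtaCCCC
PCBP2 intron 10, chr12:53860808-53860841, plus strand: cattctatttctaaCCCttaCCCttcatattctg
PCBP2 intron 12, chr12:53862384-53862416, plus strand: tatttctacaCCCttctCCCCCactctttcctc
PCBP2 intron 14, chr12:53866152-53866182, plus strand: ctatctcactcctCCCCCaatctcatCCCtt
PCBP2 3′UTR, chr12:53873725-53873754, plus strand: tttcttctattttaccacttccatcttttt
PCBP4 intron 13, chr3:51992488-51992513, minus strand: tcttccacctttCCCatcttCCCCtt

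All 4 genes had clusters in all 4 libraries, but at very different levels. By RPM summed over the gene, without regard to its length, PCBP2 was highest in every library. In KRT19 KO cytoplasm its counting interval overlapped that of PCBP1. PCBP4 was lowest except in parental nucleus, where it had 69 reads and PCBP1 37. The 205 clusters were made up of 37 on HNRNPK, 15 on PCBP1, 142 on PCBP2 and 11 on PCBP4, with 1235, 1143, 4632 and 115 reads. Together they held 0.0351%, 0.0311%, 0.0585% and 0.0361% of the cluster reads of parental cytoplasm, KRT19 KO cytoplasm, parental nucleus and KRT19 KO nucleus.

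HNRNPK, the protein that was immunoprecipitated, had 251 reads on its own transcripts in parental cytoplasm, 393 in KRT19 KO cytoplasm, 402 in parental nucleus and 189 in KRT19 KO nucleus. These gave levels of 45.2 RPM (39.8 to 51.2), 63.2 RPM (57.1 to 69.8), 114 RPM (103 to 125) and 58.1 RPM (50.1 to 67.0). Parental nucleus stood above the other 3 libraries and its interval did not overlap theirs. By reads HNRNPK ranked 3633 of 13388 genes with clusters in parental cytoplasm, 2908 of 12928 in KRT19 KO cytoplasm, 1930 of 13517 in parental nucleus and 3380 of 13581 in KRT19 KO nucleus. Its own transcript was above the median gene in each library, and PCBP2 ranked higher, at 667, 1608, 231 and 490.

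PCBP2 had 1380 reads in parental cytoplasm, 791 in KRT19 KO cytoplasm, 1560 in parental nucleus and 901 in KRT19 KO nucleus. Its levels were 249 RPM (236 to 262), 127 RPM (119 to 136), 441 RPM (419 to 463) and 277 RPM (259 to 296), so that the parental library was higher than the KRT19 KO library in both fractions. PCBP1 had 303, 746, 37 and 57 reads. Its levels were 54.6 RPM (48.6 to 61.1), 120 RPM (112 to 129), 10.5 RPM (7.36 to 14.4) and 17.5 RPM (13.3 to 22.7), high in both cytoplasm libraries and low in both nuclear ones. PCBP4, which encodes a further KH-domain protein of the family, had 15, 5, 69 and 26 reads, or 2.70, 0.804, 19.5 and 7.99 RPM.

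**Figure D1:**
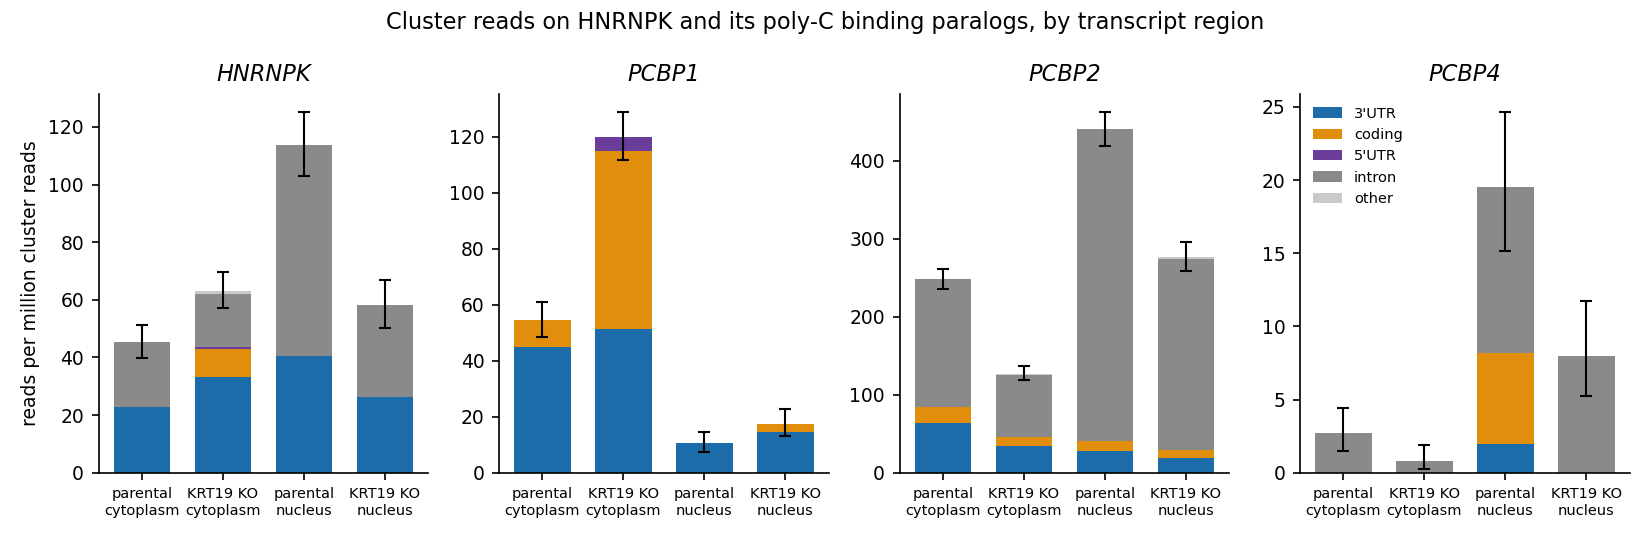
RPM (y axis, from 0, on a scale of its own in each panel) on HNRNPK, PCBP1, PCBP2 and PCBP4 in the 4 libraries (x axis), stacked by the transcript region the authors' annotation gives; black bars are 95% Poisson intervals of the total. Most PCBP2 reads were intronic (grey), PCBP1 had none in introns, and its coding reads (orange) were highest in KRT19 KO cytoplasm, at 63.5 RPM.

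The region of the transcript that was bound differed between the genes. PCBP2 reads lay mostly in introns, at 164 and 79.6 RPM in the cytoplasm libraries and 400.0 and 245 RPM in the nuclear ones, against 84.3, 45.4, 41.0 and 29.8 RPM in exons. Exonic here means clusters classed as coding, 3′UTR or 5′UTR. HNRNPK was more evenly divided, with 22.5, 18.3, 73.2 and 31.7 RPM in introns and 22.7, 43.8, 40.4 and 26.4 RPM in exons. PCBP1 has a single exon and therefore no intronic reads. Exonic levels can be compared between genes only per length, and per kilobase of the reference transcript PCBP1 led in both cytoplasm libraries, at 31.6 and 69.5 RPM per kb. PCBP2 followed in parental cytoplasm at 26.7 RPM per kb, but its interval (24.3 to 29.2) overlapped that of PCBP1 (28.1 to 35.4). HNRNPK was lowest of these 3 there, at 7.86. In KRT19 KO cytoplasm the intervals of HNRNPK (13.4 to 17.1 RPM per kb) and PCBP2 (12.7 to 16.1 RPM per kb) overlapped. In parental nucleus HNRNPK and PCBP2 likewise did not separate, at 14.0 and 13.0 RPM per kb, and PCBP1 was lower at 6.06. In KRT19 KO nucleus the 3 genes lay between 9.15 and 10.1 RPM per kb with overlapping intervals.

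Overlapping clusters on the same strand were joined into sites, which gave 123 sites on the 4 genes, 24 on HNRNPK, 9 on PCBP1, 81 on PCBP2 and 9 on PCBP4. Of these, 76 were seen in 1 library, 23 in 2, 14 in 3 and 10 in all 4. On the members 61.8% of sites were thus in 1 library and 8.13% in all 4. Over all genes it was 75.4% and 1.89% of 457819 sites. The sites seen in 1 library held a median of 9.5 reads, and those in all 4 libraries a median of 213.5 reads summed over the libraries. The 10 sites in all 4 libraries held 36.9% of the reads. Among sites of at least 50 reads, 10 of 38 were in all 4 libraries (26.3%), against 17.1% of the 47493 such sites over all genes, and no test was made of this difference. Sites in this text are numbered from 5′ to 3′ within each gene.

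**Figure D2:**
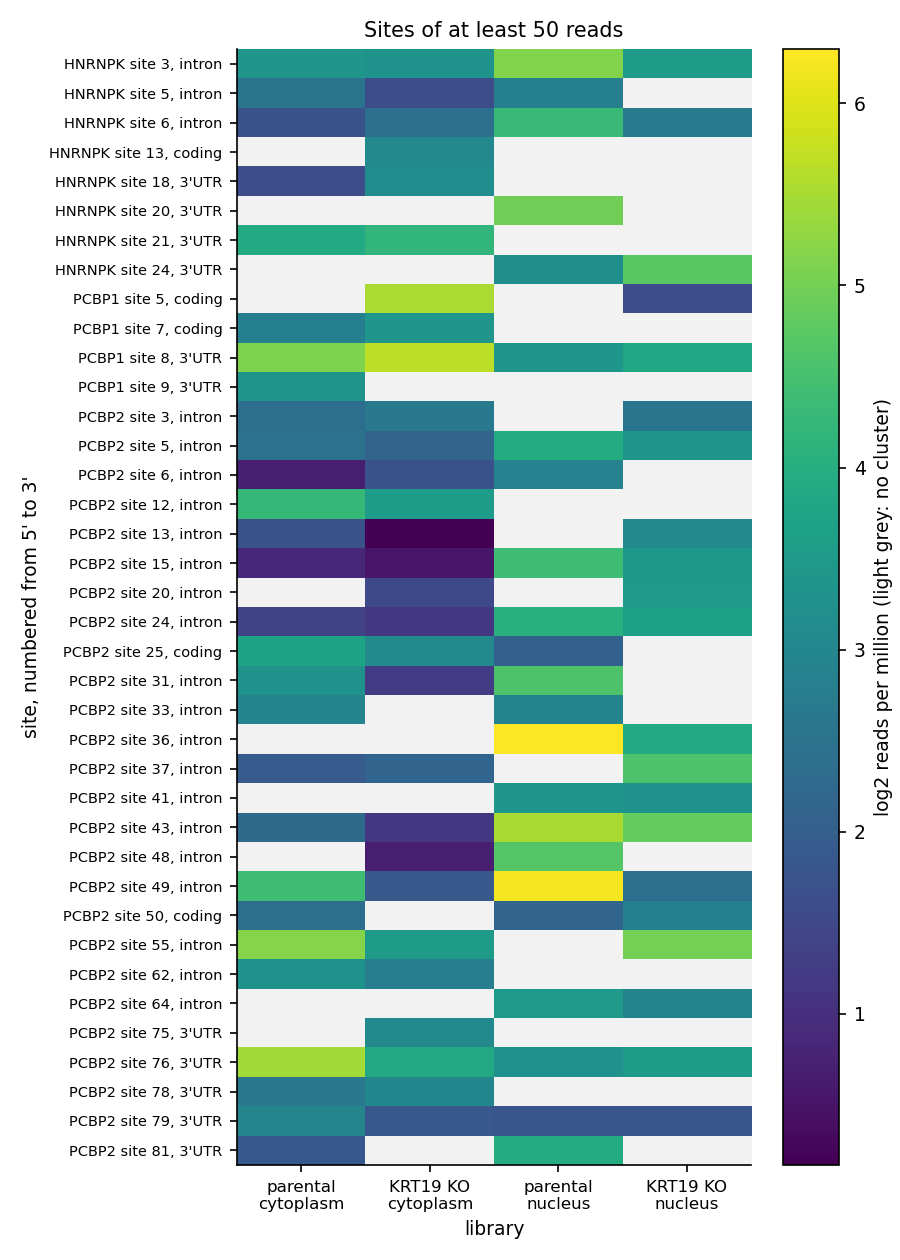
The 38 sites of at least 50 reads (rows, in the order HNRNPK, PCBP1, PCBP2) in the 4 libraries (columns); colour gives log2 RPM and light grey a library with no cluster. The PCBP1 3′UTR site 8 and the PCBP2 3′UTR site 76 were present in every library, and the 4 HNRNPK 3′UTR sites in 1 fraction each, where 51.8% of all 3′UTR sites of at least 50 reads were not shared between the fractions.

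HNRNPK (GRCh37 chr9:86582998-86595546, minus strand, 17 exons in the reference transcript) had 2 sites in all 4 libraries, and both were intronic. Site 3 in intron 1 had 57 reads in parental cytoplasm, 62 in KRT19 KO cytoplasm, 124 in parental nucleus and 38 in KRT19 KO nucleus, or 10.3, 9.97, 35.1 and 11.7 RPM. Site 6 in intron 5 had 18, 33, 70 and 21 reads, or 3.24, 5.31, 19.8 and 6.46 RPM. Both were highest in parental nucleus. Site 5 lies just upstream of site 6 in the same intron and had 32, 19 and 25 reads and no cluster in KRT19 KO nucleus. T-to-C reads made up 49.5% of the reads at site 3 and 75.4% at site 6.

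In its last exon HNRNPK had 8 sites in the 3′UTR, and none of them was shared between a cytoplasm library and a nuclear one. Of the 8, 5 were seen in a single library, and of all 3′UTR sites 82.6% were likewise not shared between the fractions. Among 3′UTR sites of at least 50 reads that share was 51.8%, where HNRNPK had 4. Site 21, which starts 767 nt after the stop codon, had 84 reads in parental cytoplasm and 115 in KRT19 KO cytoplasm, and no cluster in either nucleus. Site 18, 199 nt after the stop codon, had 17 and 56 reads in the same libraries. This site is rich in G, holds no CCC and had T-to-C changes in 34.2% of its reads. The reverse was seen at site 24, 103 nt before the transcript's end, with no cluster in cytoplasm and 33 and 86 reads in the nuclei of parental and KRT19 KO cells. Site 20, whose sequence holds 3 separate runs of C, had 110 reads in parental nucleus and no cluster in the other 3 libraries. A coding site in exon 15, site 13, had 52 reads in KRT19 KO cytoplasm and no cluster elsewhere, but 31 of its 32 bases are also found in the pseudogenes HNRNPKP2 and HNRNPKP4, so its placement is uncertain. Over all genes, 13.9% of 3′UTR sites were seen in both cytoplasms and neither nucleus, and 0.787% in both nuclei and neither cytoplasm. On HNRNPK these patterns were met by 2 and 1 of its 8 3′UTR sites.

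**Figure D3:**
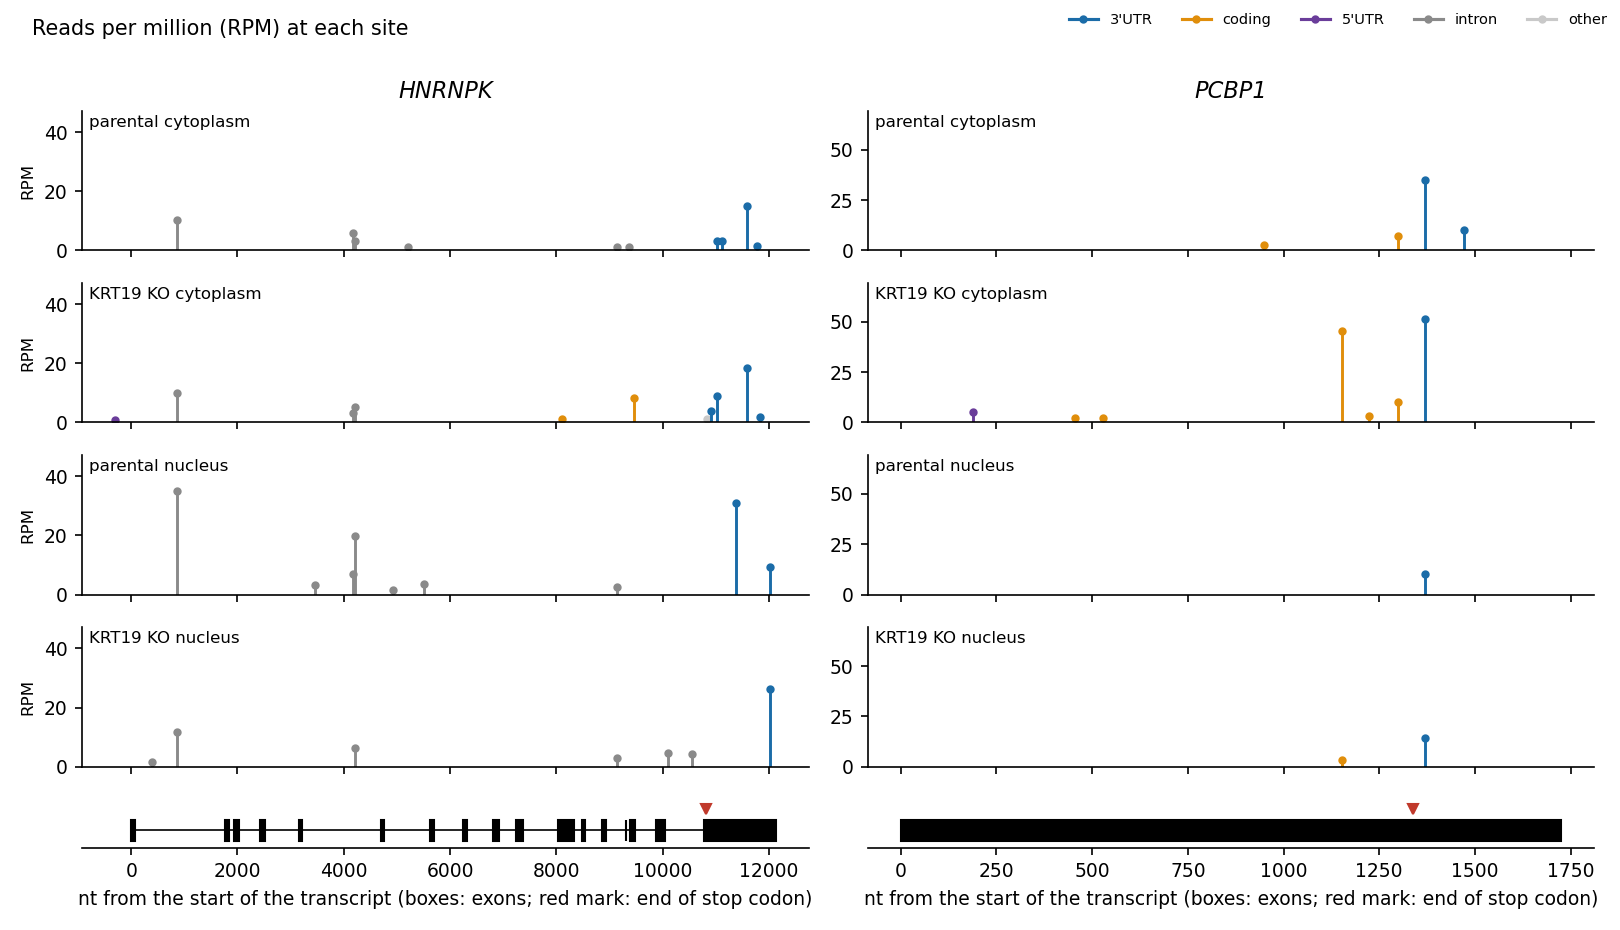
RPM at each site (y axis) against the distance in nt from the start of the reference transcript (x axis) on HNRNPK (left) and PCBP1 (right), 1 row of panels for each library; boxes are exons and the red mark is the end of the stop codon. On HNRNPK the intronic site near the 5′ end reached 35.1 RPM in parental nucleus, and on PCBP1 the signal gathered around the stop codon.

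PCBP1 (GRCh37 chr2:70314609-70316335, plus strand) had 9 sites, and 1 of them carried 597 of its 1143 reads. This site, site 8, starts 12 nt after the stop codon and had 193 reads in parental cytoplasm, 320 in KRT19 KO cytoplasm, 37 in parental nucleus and 47 in KRT19 KO nucleus, or 34.8, 51.5, 10.5 and 14.4 RPM. It was seen in all 4 libraries and was higher in both cytoplasms than in both nuclei. Its C-rich sequence is shown above with 3 runs of C. The KRT19 KO cytoplasm differed from parental cytoplasm mainly within the coding sequence. Site 5, 97 nt long, had 284 reads (45.7 RPM) in KRT19 KO cytoplasm, 10 in KRT19 KO nucleus and no cluster in the parental libraries. Site 7, at the end of the coding sequence, had 39 reads in parental cytoplasm and 64 in KRT19 KO cytoplasm and none in the nuclei. In parental cytoplasm site 9, 104 nt after the stop codon, had 56 reads, with no cluster in the other libraries.

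PCBP1 and PCBP2 share coding sequence, and the 20 nt below lie both in PCBP1 site 5 (chr2:70315719-70315738) and in a cluster of PCBP2 exon 13 (chr12:53862593-53862612). They are shown because they mark where the 2 paralogs can be told apart only by the bases around them.
PCBP1 and PCBP2, shared stretch: catgaactcaccattccaaa
The PCBP2 site that holds them, site 50, had 29 reads in parental cytoplasm, none in KRT19 KO cytoplasm, 16 in parental nucleus and 23 in KRT19 KO nucleus. Whether reads were misplaced between site 50 and PCBP1 site 5 was not tested. Of the 97 bases of PCBP1 site 5, 83 are found in the pseudogene PCBP2P2. Of the 30 bases of the strongest cluster of site 50, 29 are found there. As a whole, the strongest cluster of each of the 123 sites matched the genome at 1 place. Some coding clusters had near copies in pseudogenes, such as PCBP2 site 25, of whose 68 bases 66 are found in PCBP2P2, and these are uncertain where the authors' alignment allowed mismatches.

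PCBP2 (GRCh37 chr12:53845886-53874946, plus strand, 15 exons) had 7 sites in all 4 libraries, 4 in introns of the reference transcript, 2 in the 3′UTR and 1 upstream of the gene's start. Site 76 in the 3′UTR, 499 nt after the stop codon, had 242 reads in parental cytoplasm, 90 in KRT19 KO cytoplasm, 34 in parental nucleus and 38 in KRT19 KO nucleus, or 43.6, 14.5, 9.61 and 11.7 RPM. Parental cytoplasm was the highest, and the other 3 lay between 9.61 and 14.5 RPM. It is rich in T and C but holds no run of 3 C. Site 79, the other shared 3′UTR site, had 43, 22, 12 and 11 reads, or 7.75, 3.54, 3.39 and 3.38 RPM. Site 78, between them, was seen in both cytoplasms with 34 and 49 reads and in neither nucleus.

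In introns of PCBP2 the nuclear libraries led at several sites, as intronic reads of most genes did. The log2 ratio of cytoplasm to nucleus in intronic reads was -1.28 for PCBP2 in parental cells and -1.61 in KRT19 KO cells, with medians of -0.98 and -1.60 over all genes. Site 43 in intron 10 had 27 and 14 reads in the cytoplasms of parental and KRT19 KO cells and 159 and 93 in the nuclei, or 4.86, 2.25, 44.9 and 28.6 RPM. Site 36 in intron 9 had no cluster in cytoplasm and 278 and 49 reads in the nuclei, or 78.6 and 15.1 RPM. Site 49 in intron 12 had 116, 23, 264 and 17 reads, or 20.9, 3.70, 74.6 and 5.23 RPM, so that each parental library was higher than its KRT19 KO counterpart. Sites 15 and 24, in introns 2 and 6, were at most 2.70 RPM in the cytoplasms and between 10.8 and 20.9 RPM in the nuclei. Site 55 in intron 14 went another way, with 203, 71, 0 and 105 reads, or 36.6 RPM in parental cytoplasm, 11.4 in KRT19 KO cytoplasm, no cluster in parental nucleus and 32.3 RPM in KRT19 KO nucleus. Site 12 in intron 1, with 106 and 73 reads (19.1 and 11.7 RPM), and site 62 in intron 14, with 54 and 43 reads (9.73 and 6.92 RPM), were seen in the cytoplasms of parental and KRT19 KO cells and in neither nucleus. Intronic reads were thus present in the libraries labelled cytoplasm too, at 22.5 and 18.3 RPM on HNRNPK and 164 and 79.6 RPM on PCBP2.

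Of the PCBP2 sites, 7 lie upstream of the gene's start in the annotation used here, and they held 84, 105, 89 and 81 reads in the 4 libraries. The authors' annotation named them PCBP2, 6 of them as introns. Site 5, the strongest, had 31, 27, 54 and 34 reads and was in all 4 libraries.

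**Figure D4:**
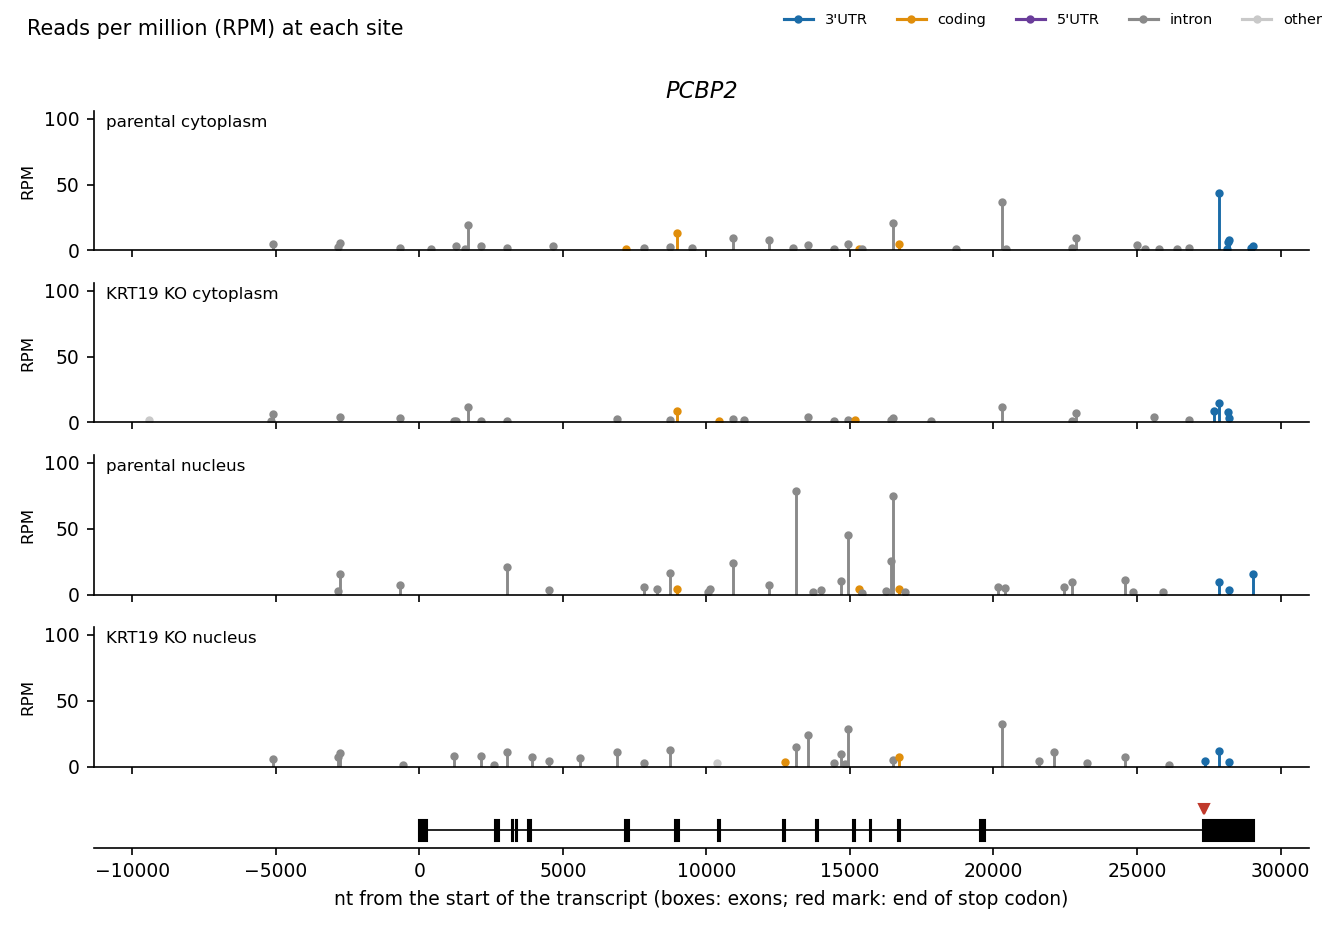
RPM at each PCBP2 site (y axis) against the distance in nt from the start of the reference transcript (x axis, negative values upstream), 1 panel for each library; boxes are exons and the red mark is the end of the stop codon. The tallest intronic sites of parental nucleus, at 78.6 and 74.6 RPM, had no cluster and 20.9 RPM in parental cytoplasm, and the 3′UTR site 76 was tallest in parental cytoplasm.

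PCBP4 (GRCh37 chr3:51991470-52008032, minus strand) had 9 sites, and no cluster of it held more than 21 reads. Site 7 in intron 13 had 19 reads in parental nucleus and 16 in KRT19 KO nucleus and none in cytoplasm. Site 5 in the same intron had 21 reads in parental nucleus and 5 in KRT19 KO cytoplasm. Exonic reads, 29 in 3 clusters, were found in parental nucleus and in no other library, each cluster with a single unique read. All 9 PCBP4 sites held a run of 3 C, where 40.2% of the sites over all genes did, and the 9 sites rest on few reads. Part of the span is shared with ABHD14B, whose name the authors' annotation gave to 1 cluster of 11 reads in parental cytoplasm, 1 of 171 reads in KRT19 KO cytoplasm and 1 of 20 reads in parental nucleus. These were not counted for PCBP4.

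Ratios between libraries were taken as log2 of RPM plus a pseudocount of 1 RPM, and they are read beside all genes with at least 50 reads in the libraries compared. Their intervals were computed from the counts without the pseudocount, so a value on few reads need not lie at the middle of its interval. The first comparison set KRT19 KO cytoplasm against parental cytoplasm. RPM is a share of a library's cluster reads, so it does not give the total RNA bound to HNRNPK. The study reported less HNRNPK in the cytoplasm of KRT19 KO cells. RNA levels of the genes were not set beside these ratios. A difference in binding cannot be told apart here from one in transcript level. PCBP1 was higher in KRT19 KO, by 1.12 (0.94 to 1.33), and HNRNPK by 0.47 (0.25 to 0.72), while PCBP2 was lower, at -0.96 (-1.09 to -0.84). The median gene stood at -0.07. Past 2-fold, 1 of the 3 members with enough reads was higher (PCBP1) and none was lower, where 19.6% of 9378 genes were past 2-fold higher and 21.1% past 2-fold lower. PCBP1 was above 82.7% of genes and PCBP2 above 22.1%. HNRNPK was at 0.27 without site 13, whose placement is uncertain. Without its coding site 5 PCBP1 was at 0.44, and with RPM scaled to exonic reads PCBP1 was at 0.43 and PCBP2 at -1.67, so that the member past 2-fold was then PCBP2.

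In exonic reads the whole distribution was shifted, with a median of 0.73 in KRT19 KO against parental cytoplasm. HNRNPK at 0.92 and PCBP1 at 1.12 lay near that median, above 56.1% and 62.2% of genes, whereas PCBP2 at -0.88 lay above 11.3% of genes. Without site 13 the exonic value of HNRNPK was 0.62. Exonic reads of 41.7% of genes were past 2-fold higher and 10.3% past 2-fold lower. When RPM was scaled to exonic reads, the median over all reads moved to -0.76 and HNRNPK moved to -0.22, so its direction in cytoplasm turned with the scaling. Scaled in this way, 10.2% of genes were past 2-fold higher and 41.8% past 2-fold lower in cytoplasm, and 10.3% and 25.9% in the nucleus. Relative to the median gene HNRNPK stood at 0.55 and, with the exonic scaling, at 0.54.

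In the nucleus, the KRT19 KO library was below the parental one for HNRNPK, at -0.96 (-1.22 to -0.71), and also for PCBP2, at -0.67 (-0.79 to -0.55), and PCBP4, at -1.19 (-2.00 to -0.62). PCBP1 was higher at 0.69 (0.12 to 1.38) on 57 and 37 reads. The median gene stood at -0.10. Of the 4 members 1 (PCBP4) was past 2-fold lower and none past 2-fold higher, where 17.2% and 13.5% of 9371 genes were. HNRNPK was above 18.1% of genes and PCBP4 above 13.8%. In exonic reads HNRNPK stood at -0.59 (-1.02 to -0.22), PCBP1 at 0.69 and PCBP2 at -0.45 (-0.85 to -0.08), none of them past 2-fold, against 25.7% of genes past 2-fold higher and 23.2% past 2-fold lower. The exonic values in the nucleus rest on single sites. Without site 20 HNRNPK was at 1.41 in exonic reads, since its only other exonic site there, site 24, was higher in KRT19 KO, and without site 81 PCBP2 was at 0.21. Over all reads HNRNPK was at -0.50 without site 20. PCBP4 was at -0.70 without site 5, and at -0.07 with clusters of at least 2 conversion locations, so that it was then not past 2-fold.

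**Figure D5:**
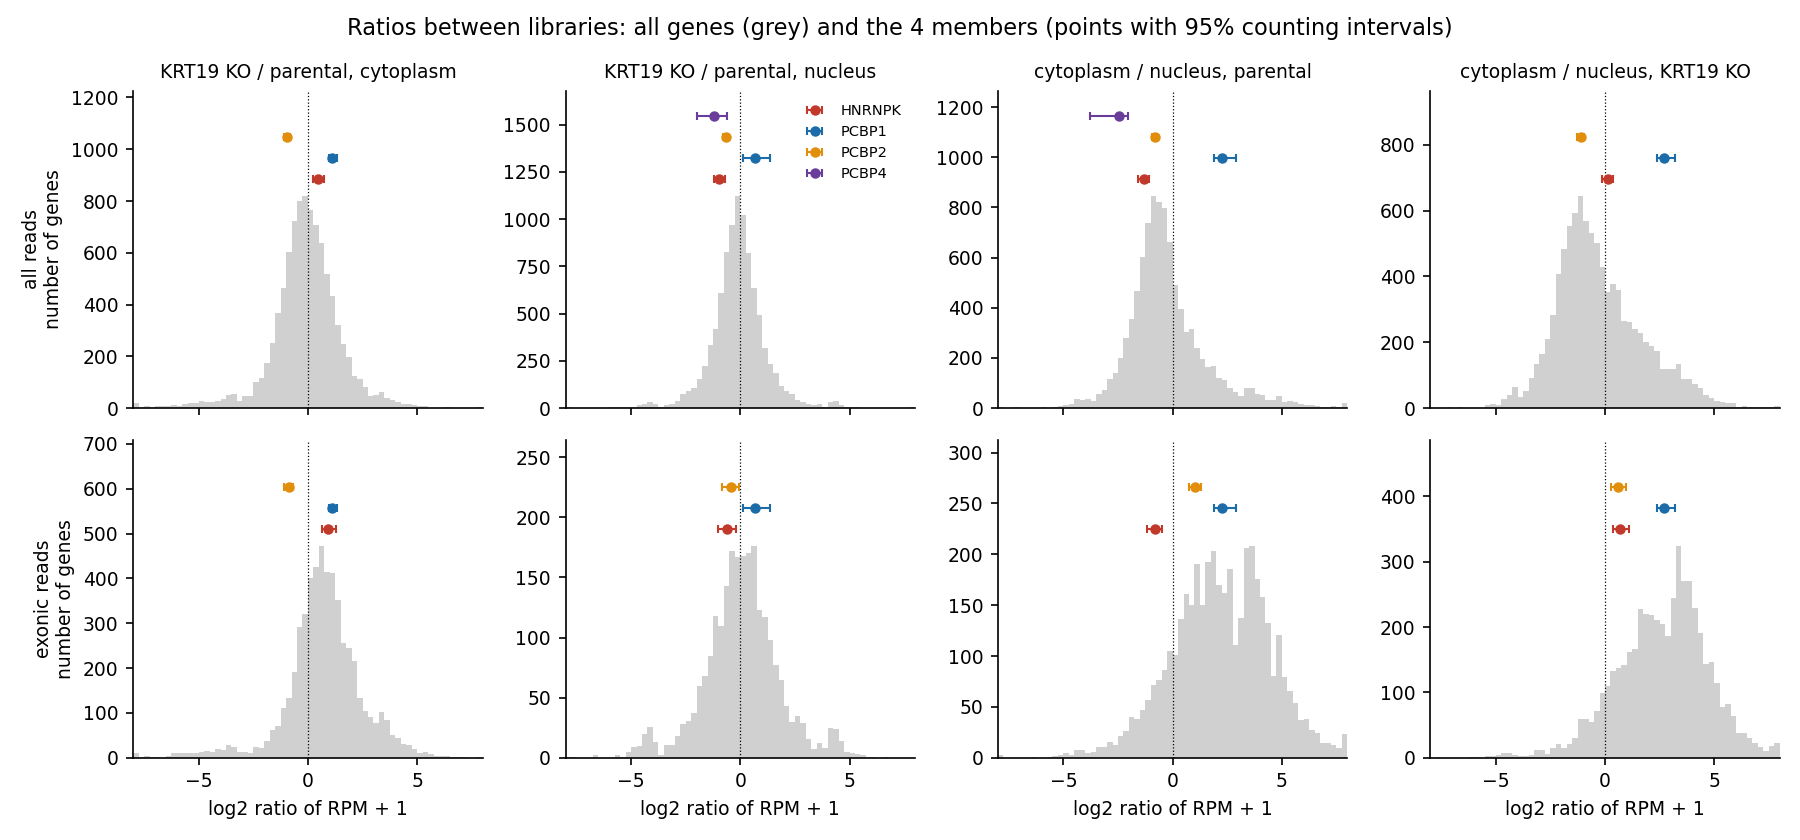
Number of genes (grey bars, y axis) by log2 ratio of RPM plus 1 (x axis, end bins hold genes past the axis) in the 4 comparisons, over all reads (top) and exonic reads (bottom); points are the members with at least 50 reads in the libraries compared, with 95% counting intervals, at arbitrary heights. PCBP1 and PCBP2 lay on opposite sides of 0 in the upper 4 panels, and HNRNPK changed sides between KRT19 KO over parental in cytoplasm and in nucleus.

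Cytoplasm was next compared with nucleus. In parental cells PCBP1 was higher in cytoplasm by 2.28 (1.89 to 2.92), and HNRNPK, PCBP2 and PCBP4 were lower, at -1.31 (-1.56 to -1.10), -0.82 (-0.93 to -0.72) and -2.47 (-3.76 to -2.03). The median gene was at -0.52. Past 2-fold, 1 of the 4 members was higher and 2 were lower (HNRNPK and PCBP4), where 18.2% and 33.6% of 9590 genes were. In KRT19 KO cells PCBP1 was again higher in cytoplasm, by 2.71 (2.39 to 3.19), PCBP2 was at -1.12 (-1.26 to -0.98) and HNRNPK at 0.12 (-0.13 to 0.38). The median gene was at -0.59. There 1 of 3 members was past 2-fold higher and 1 (PCBP2) past 2-fold lower, where 23.9% and 40.3% of 9458 genes were. HNRNPK was at -0.85 in parental cells without site 20, and in KRT19 KO cells PCBP2 was at -0.99 without site 43 and HNRNPK at -0.37 without site 21. With RPM scaled to exonic reads PCBP1 was no longer past 2-fold in either genotype, at 0.33 in parental cells and 0.315 in KRT19 KO cells, and PCBP2 was past 2-fold lower in both, at -2.88 and -3.58. On that scale HNRNPK was at -3.37 and -2.33 and PCBP4 at -4.73 in parental cells, and the median gene was at -2.57 and -3.04.

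Scaled in this way, 6.66% of genes were past 2-fold higher in parental cytoplasm and 81.7% past 2-fold lower, and in KRT19 KO 6.43% and 80.2%. Exonic reads of most genes were higher in cytoplasm, with a median of 2.23 in parental cells and 2.81 in KRT19 KO cells. In parental cells 71.1% of genes were past 2-fold higher in cytoplasm and 7.75% past 2-fold lower, and in KRT19 KO cells 79.1% and 4.69%. PCBP1 lay at the middle of the genes in both, above 51.0% and 48.4%. PCBP2 was at 1.02 (0.77 to 1.32) and 0.59 (0.27 to 0.95), above 29.2% and 16.2% of genes. Without site 76 the parental value was 0.37, under 2-fold. HNRNPK was at -0.81 (-1.19 to -0.48) and 0.71 (0.37 to 1.09), above 9.06% and 17.3% of genes. Both HNRNPK values turned with 1 site. Of its 143 exonic reads in parental nucleus 110 came from site 20, and without it the parental value was 1.20. Without site 21 the KRT19 KO value was -0.064.

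The shares of T-to-C reads on the 4 genes together were 58.2% (56.0 to 60.4) in parental cytoplasm, 59.0% (56.8 to 61.2) in KRT19 KO cytoplasm, 62.3% (60.2 to 64.4) in parental nucleus and 72.8% (70.2 to 75.3) in KRT19 KO nucleus. Over all clusters they were 66.4%, 59.6%, 72.9% and 76.7%, so the pooled reads of the 4 genes were below the library in parental cytoplasm and in both nuclei and near it in KRT19 KO cytoplasm. The direction differed by gene and region. PCBP4 was above its library in all 4, at 100%, 80.0%, 84.1% and 96.2% of 15, 5, 69 and 26 reads. Its interval in KRT19 KO cytoplasm (28.4 to 99.5) held the library's 59.6%. In the 3′UTR, clusters of the family were above those of all genes in parental cytoplasm, at 57.7% against 53.4%, and below them elsewhere. Those shares were 52.1% against 55.1% in KRT19 KO cytoplasm, 56.8% against 65.8% in parental nucleus and 59.5% against 69.3% in KRT19 KO nucleus. PCBP1 ranged from 53.8% in parental cytoplasm to 96.5% (87.9 to 99.6) of 57 reads in KRT19 KO nucleus. HNRNPK ranged from 53.7% in parental nucleus to 70.9% in KRT19 KO nucleus. Unique reads, a further column of the files, were few in the nuclei, with 42 unique among the 189 reads of HNRNPK in KRT19 KO nucleus and 219 among the 393 in KRT19 KO cytoplasm, and clusters with 1 unique read numbered 7, 3, 10 and 10 of the family's clusters in the 4 libraries.

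Runs of C, the sequence that these proteins are known to bind, were present in part of the clusters. CCC was found in 50.2% of the 205 member clusters and in 42.7% of all clusters with a gene name, and UCCC (written TCCC in the files) in 37.6% and 30.7%. The strand searched was that of the transcript, and CCC also counts where it is part of UCCC. Intronic member clusters held CCC in 57.5%, 60.7%, 52.6% and 47.2% of cases in the 4 libraries, against 40.6%, 41.3%, 45.2% and 44.2% of all intronic clusters. In 3′UTR clusters the shares on the members were 33.3%, 22.2%, 42.9% and 60.0%, of 12, 9, 7 and 5 clusters, against 34.8%, 36.5%, 46.3% and 45.9% of all 3′UTR clusters, so that the members were below all genes in 3 of the 4 libraries. Among sites of at least 50 reads the family did not stand apart, with CCC in 21 of 38 sites (55.3%) against 54.5% of all such sites. Clusters ended in G, where RNase T1 cuts, in 44.1%, 51.0%, 42.0% and 44.4% of member clusters and in 49.8%, 50.6%, 45.8% and 44.7% of all. In the intronic clusters that lie within 50 nt of a following annotated exon, members had 2 of 40, 1 of 28, 1 of 38 and 1 of 36, against 1.09%, 1.19%, 1.68% and 1.90% of all.

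Other genes and pseudogenes of the family also had clusters. PCBP3, the remaining poly-C binding gene, had 22, 11, 28 and 23 clusters and 186, 102, 296 and 236 reads in parental cytoplasm, KRT19 KO cytoplasm, parental nucleus and KRT19 KO nucleus. Its levels, 33.5, 16.4, 83.7 and 72.6 RPM, were higher in both nuclei. PCBP3 was above PCBP4 in every library and above PCBP1 in both nuclei. In KRT19 KO nucleus it was also above HNRNPK, but their counting intervals overlapped (63.6 to 82.4 and 50.1 to 67.0 RPM). PCBP1-AS1, the antisense RNA next to PCBP1, had 64, 31, 132 and 44 reads. At 11.5, 4.99, 37.3 and 13.5 RPM it was higher in the nucleus of each genotype, where PCBP1 was lower. The pseudogenes HNRNPKP1 and HNRNPKP4 had 11 and 24 reads in parental cytoplasm and none elsewhere, and PCBP2P1 had 6 reads in parental nucleus and 29 in KRT19 KO nucleus. A cluster of 6 reads inside HNRNPK was named for MIR7-1, the microRNA gene hosted by HNRNPK, in parental cytoplasm, from 1 unique read.

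Other genes of KH-domain proteins were also bound. Of 30 listed genes 27 had clusters, 21 in all 4 libraries and 23 in a 3′UTR. The 3 with the most 3′UTR reads were QKI, KHSRP and ANKRD17. QKI, a regulator of splicing and RNA stability, had 3′UTR levels of 344, 715, 32.8 and 88.2 RPM, and KHSRP, which promotes decay of AU-rich mRNAs, had 319, 307, 24.9 and 8.92 RPM. Over all reads 1 of 23 tested genes was past 2-fold higher in KRT19 KO cytoplasm and 8 past 2-fold lower, with a median of -0.53 against -0.07 for all genes, where 19.6% and 21.1% of all genes were. In the nucleus none of 21 was past 2-fold higher and 3 were lower, beside 13.5% and 17.2% of all genes. Cytoplasm over nucleus gave 5 higher and 3 lower of 23 in parental cells, beside 18.2% and 33.6% of all genes, and 5 and 5 of 21 in KRT19 KO cells, beside 23.9% and 40.3%. Over exonic reads 3 of 17 tested genes were past 2-fold higher and 5 past 2-fold lower in KRT19 KO cytoplasm, with a median of -0.25 against 0.73 for all genes, of which 41.7% and 10.3% were. In the nucleus it was 3 and 4 of 11, beside 25.7% and 23.2%. Cytoplasm over nucleus gave 15 higher and 1 lower of 18 in parental cells, beside 71.1% and 7.75%, and 12 and 0 of 13 in KRT19 KO cells, beside 79.1% and 4.69%.

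A further list held genes of 15 other RNA-binding proteins, many of them known to bind pyrimidine-rich RNA. All 15 had clusters in all 4 libraries and in a 3′UTR. PTBP3, PTBP1 and CELF1 had the most 3′UTR reads. PTBP1, the polypyrimidine tract binding protein gene, stood at 35.5, 126, 11.9 and 27.1 RPM in the 3′UTR, and PTBP3, its paralog, at 225, 250, 1.41 and 87.6 RPM. In KRT19 KO against parental cytoplasm 5 of the 15 were past 2-fold higher and 1 lower, with a median of -0.02, beside 19.6% and 21.1% of all genes. In the nucleus 1 was higher and 2 were lower, with a median of -0.01, beside 13.5% and 17.2%. In cytoplasm over nucleus 1 was higher and 5 were lower in parental cells, beside 18.2% and 33.6% of all genes, and 2 and 8 in KRT19 KO cells, beside 23.9% and 40.3%. Over exonic reads 6 of 13 tested genes were past 2-fold higher in KRT19 KO cytoplasm and 1 lower, with a median of 0.42 against 0.73 for all genes, of which 41.7% and 10.3% were. In the nucleus 3 of 11 were higher and 1 lower, beside 25.7% and 23.2%. For cytoplasm over nucleus 4 of 11 were higher and none lower in parental cells, with a median of 0.32 against 2.23, beside 71.1% and 7.75%, and 6 higher and 1 lower of 13 in KRT19 KO cells, with a median of 0.97 against 2.81, beside 79.1% and 4.69%.

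The split of RPM over the 4 libraries was compared between a member and 7891 other genes with at least 200 reads, by the summed absolute difference divided by 2. PCBP4, with 115 reads, was under that limit and was not compared. HNRNPK had 16.1%, 22.6%, 40.6% and 20.7% of its RPM in parental cytoplasm, KRT19 KO cytoplasm, parental nucleus and KRT19 KO nucleus. Nearest to it were PFKFB3, DCTN2 and ZNF496, at distances of 0.015, 0.019 and 0.021. PCBP1, with 26.9%, 59.2%, 5.16% and 8.65%, was nearest to SPRTN, MIDN and FAM217B, at 0.010, 0.012 and 0.015. PCBP2, with 22.7%, 11.6%, 40.3% and 25.3%, was nearest to GTF2F2, CDC40 and C2CD5, at 0.0044, 0.0099 and 0.011. The measure rests on 4 libraries and describes likeness of pattern alone.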

How the data were processed

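HNRNPK PAR-CLIP was analysed in 4 libraries, and 17 RNA-seq samples of the series were not analysed here. Per the study's methods, the authors converted reads with bcl2fastq 2.20.0, demultiplexed them with cutadapt, removed potential PCR duplicates by molecular identifiers, referred them to hg19 and called clusters with PARalyzer through PARpipe. The labels name hg38, but the cluster sequences equal GRCh37. The deposited cluster tables hold read counts, unique reads and T-to-C read counts per cluster, with a gene name and class, neither scaled nor pooled. Counts were scaled here to reads per 1000000 cluster reads (RPM) (Python 3.11.15, pandas 2.3.3, scipy 1.17.1), joined into sites by at least 1 nt of overlap and placed on GENCODE v44 lifted to GRCh37. Intervals are at 95%. The calculations were tested on simulated data. Members, lists and the rule for named genes (the members, their name-sharing relatives, the 3 list genes with the most 3′UTR reads, markers and the 3 nearest genes) were chosen with earlier results of these data known.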

Additional observations from a re-analysis of the deposited data

Results flagged for a closer look

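HNRNPK moved one way in cytoplasm and the other way in nucleus when KRT19 KO was set against parental cells. Over all reads the log2 ratio was 0.47 in cytoplasm and -0.96 in nucleus, and over exonic reads it was 0.92 in cytoplasm and -0.59 in nucleus. The exonic value in nucleus came from site 20, which held 110 of 143 reads in parental nucleus and had no cluster in KRT19 KO nucleus. Without it the exonic value was 1.41, higher in KRT19 KO in nucleus as in cytoplasm, and the value over all reads was -0.50. With 1 library per condition the difference between the fractions was not tested. The exonic value in cytoplasm lies near the median of all genes (0.73), and with RPM scaled to exonic reads the value over all reads in cytoplasm was -0.22. Without site 13, whose placement is uncertain, the values in cytoplasm were 0.27 over all reads and 0.62 over exonic reads.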

How the results depend on the processing

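No paired analysis was possible because the numbered RNA-seq replicates were not analysed here and each PAR-CLIP condition has 1 library. The number of members past 2-fold was 1 in KRT19 KO over parental cytoplasm and became 2 with clusters of at least 10 reads, with unique reads and with scaling without the top cluster of each library, where PCBP2 passed 2-fold as well, and 3 when genes were assigned by same-strand span. With clusters of at least 2 conversion locations or with scaling by exonic reads the 1 member past 2-fold was PCBP2 (-1.04 and -1.67), and PCBP1 was at 0.98 and 0.43. In the nucleus it was 1 and became 0 with clusters of at least 2 conversion locations or with genes of at least 200 reads, and 2 with scaling by exonic reads or without each gene's top cluster. Scaling by exonic reads moved the median gene to -0.76 and -0.40 in KRT19 KO over parental, cytoplasm and nucleus, and to -2.57 and -3.04 in cytoplasm over nucleus, parental and KRT19 KO, and reversed HNRNPK in KRT19 KO over parental cytoplasm to -0.22. Counting ABHD14B clusters for PCBP4 by span reversed it to 2.37 in KRT19 KO over parental cytoplasm (2.44 relative to the median gene) and to 1.71 in cytoplasm over nucleus of KRT19 KO (2.29 relative to the median gene). With at least 2 conversion locations the value relative to the median gene reversed for PCBP4 in the nucleus (0.14) and for HNRNPK in cytoplasm over nucleus of KRT19 KO (-0.64). The cause of these reversals was not tested. Each site was also left out of both libraries in turn, an alternative chosen after seeing the data. In exonic reads this reversed HNRNPK in KRT19 KO over parental nucleus (1.41, without site 20) and in cytoplasm over nucleus of parental (1.20, site 20) and KRT19 KO cells (-0.064, site 21), and PCBP2 in KRT19 KO over parental nucleus (0.21, site 81). Clusters of at least 10 reads left 44 sites in 1 library and 55.5% T-to-C reads in parental cytoplasm, at least 2 conversion locations left 130 member clusters, and without each gene's top cluster T-to-C reads in parental nucleus were 64.9%. With UUCCC or CCCC in place of CCC, 33.2% of member clusters and 24.6% of all held the motif. PCBP1 and PCBP2 kept their sign in all 4 comparisons over all reads under each of the 8 other alternatives for ratios, and HNRNPK in KRT19 KO over parental nucleus and in parental cytoplasm over nucleus. HNRNPK in cytoplasm over nucleus of KRT19 KO, 0.12, kept its sign in 5 of the 8. PCBP4, with at most 69 reads in a library, and single sites of few reads are limited by depth.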
